A study of Mus musculus with 8 samples.

Results

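Mitochondria join and divide continuously, and the balance between both processes sets the shape of the mitochondrial network. The 10 genes described here encode the core of this machinery in mouse cells: Mfn1, Mfn2 and Opa1 on the side of fusion, Oma1, a protease that cuts OPA1 and so limits fusion of the inner membrane, Dnm1l, Fis1, Mff, Mief1 and Mief2 on the side of fission, and Pgam5, a phosphatase that acts on the fission GTPase. They were chosen by name for their function, with earlier results of these data known, and are 10 of the 54532 genes in the count table. All 10 were among the 13185 genes with enough counts to be tested.

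RNA was measured in MA-10 cells, a steroid-producing line derived from a mouse Leydig cell tumour, which secretes progesterone in response to cAMP. The 4 KO libraries came from cells in which Mttp, the gene of the microsomal triglyceride transfer protein (MTP), had been targeted with CRISPR/Cas9, and the 4 WT libraries came from MA-10 cells with the gene in place. Both groups were cultured for 48 h and then received 0.5 mM 8-BrcAMP, a cell-permeable analog of cAMP, for 3 h, so no library shows the unstimulated state. KO cells had been grown up from single cells by limiting dilution. The sources used here do not name the clone that was sequenced, and effects of the knockout and of growing up 1 cell cannot be told apart. The study calls the replicates of each group biological, and the labels do not say that they came from separate cultures. The p-values measure the spread between these libraries, part of which may be technical.

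Fusion of the outer membrane is carried out by the mitofusins, the GTPases encoded by Mfn1 and Mfn2. Fusion of the inner membrane needs OPA1, a GTPase that also holds the cristae together and that is cut by proteases, among them the stress-activated OMA1. Division is carried out by DRP1, the product of Dnm1l, a cytosolic GTPase that is brought to the outer membrane by the receptors FIS1, MFF, MiD51 (Mief1) and MiD49 (Mief2). Leydig cells convert cholesterol to pregnenolone at the inner mitochondrial membrane. Protein kinase A, the kinase switched on by cAMP, phosphorylates DRP1.

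The libraries held 14927989 to 18394797 counts in KO cells and 15075610 to 16321292 counts in WT cells (exact permutation test, 2-sided, p = 0.2). Mttp averaged 5.87 ± 1.27 CPM in KO cells and 13.1 ± 1.04 CPM in WT cells (mean ± SD, n = 4 each), where CPM is the count relative to the TMM-scaled library size, a log2 fold change of -1.15 (edgeR adjusted p = 4.45e-06). Leydig markers were expressed in both groups, with a summed level of 1827 to 1986 FPKM (CPM per kilobase of gene length) in KO libraries and 1624 to 1828 FPKM in WT libraries, and 5 of the 7 markers rose. The 6 Sertoli markers summed to 408 to 466 FPKM in KO libraries against 218 to 245 FPKM in WT libraries, where 3 were tested and 1 of them, Rhox5, rose. The 5 endothelial markers summed to 23.8 to 28.2 FPKM in KO libraries and 43.2 to 49.6 FPKM in WT libraries with Emcn at 0, where 2 were tested and 1 fell. The 5 macrophage markers summed to 6.92 to 8.77 FPKM in KO libraries and 11.6 to 14.8 FPKM in WT libraries with Adgre1 and Ptprc at 0, where 3 were tested and 2 fell. All libraries came from the MA-10 line, so a marker level here does not show that cells of that type were present. Bulk RNA gives no level per cell. The mitochondrial chromosome took 4.92 to 6.16% of the counts in KO libraries and 3.65 to 4.80% in WT libraries (p = 0.0286 by a 2-sided exact permutation test, which cannot go lower with 4 libraries against 4). Germ cell markers summed to 2.01 to 3.67 FPKM in KO libraries and 1.11 to 3.10 FPKM in WT libraries with Tnp1 at 0, and neither of the 2 tested was called. Myoid and fibroblast markers summed to 2.91 to 3.42 FPKM in KO libraries and 4.92 to 5.17 FPKM in WT libraries, where 2 were tested and 1 fell. The part of these shifts in the results was not tested.

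Of the 10 genes, 6 rose in KO cells, 1 fell and 3 did not pass the test (edgeR quasi-likelihood test, called at an adjusted p below 0.05 over all tested genes). Oma1, Mief1, Mief2, Pgam5, Mfn2 and Opa1 rose, Mfn1 fell, and Dnm1l, Fis1 and Mff were not called. In the whole table, 42.7% of the tested genes were called, 21.7% as higher and 21.1% as lower in KO cells, so calls of this kind were common. The log2 fold changes (KO over WT) of the 10 genes ran from -0.39 for Mfn1 to 0.51 for Oma1 with a median of 0.18, beside a median of -0.0019 over all tested genes. Their median absolute change of 0.22 lay near the 0.20 of all tested genes. Only Oma1 passed a limit of 0.5 on the absolute log2 fold change, a limit that 15.8% of all tested genes passed together with the adjusted p. In 6 of the 10 genes the KO and WT libraries did not overlap in CPM, beside 38.6% of all tested genes. KO libraries lay wholly above WT libraries in 5 of them and wholly below in 1, beside 19.7% and 18.9% of all tested genes.

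**Figure D1:**
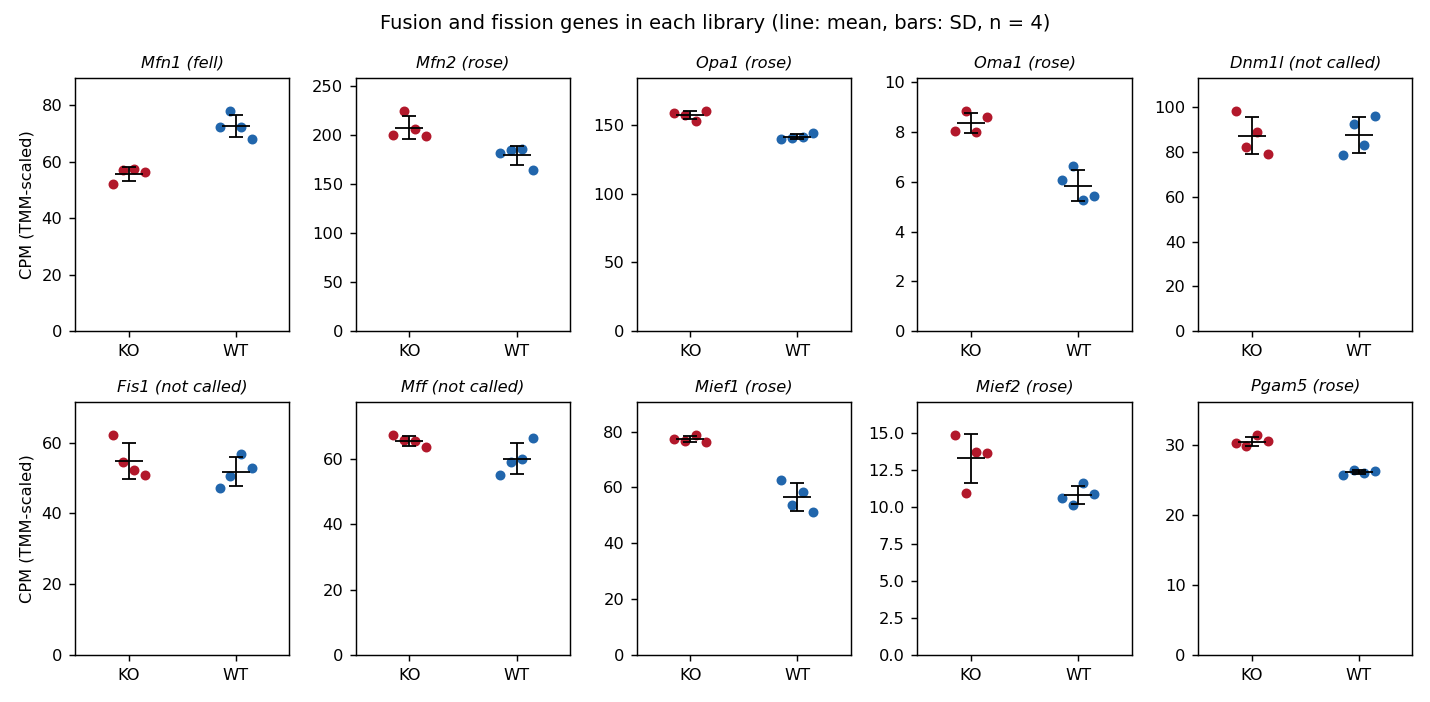
Level of each gene in every library, in CPM scaled by TMM, on axes that start at 0 and differ between panels. Points are the 4 KO libraries (left, red) and the 4 WT libraries (right, blue), and lines with bars are the mean ± SD. KO libraries lie wholly below WT libraries for Mfn1 and wholly above them for Mfn2, Opa1, Oma1, Mief1 and Pgam5, while the groups overlap for Dnm1l, Fis1, Mff and Mief2.

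Promoter sequence is shown for 5 of the called genes, Mfn1, which fell, and Mfn2, Opa1, Oma1 and Mief1, which rose. Mief2 also rose and is not printed. Mfn2 has several start sites, and a single stretch is printed, the one that holds GGGCGG on either strand. RefSeq lists 14 start sites for 9 of the 10 genes, and Pgam5 was not matched. The 150 bases before each start were searched on both strands for 9 short motifs, and capitals mark every match. Shown are the bases that lie before the RefSeq start and also before the start of the gene in the count table (GRCm38.p6, 5′ to 3′ on the strand of the gene).
Mfn1, chr3:32529332-32529464, plus strand: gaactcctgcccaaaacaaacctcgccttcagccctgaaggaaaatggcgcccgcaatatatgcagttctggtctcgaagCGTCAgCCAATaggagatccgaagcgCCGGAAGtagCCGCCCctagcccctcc
Mfn2, chr4:147904910-147905059, minus strand: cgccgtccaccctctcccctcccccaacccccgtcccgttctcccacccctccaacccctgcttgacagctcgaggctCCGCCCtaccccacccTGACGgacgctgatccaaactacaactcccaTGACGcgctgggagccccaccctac
Opa1, chr16:29579184-29579333, plus strand: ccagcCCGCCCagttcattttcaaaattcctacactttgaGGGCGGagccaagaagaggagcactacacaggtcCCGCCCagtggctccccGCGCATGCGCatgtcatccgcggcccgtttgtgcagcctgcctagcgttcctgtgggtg
Oma1, chr4:103313696-103313811, plus strand: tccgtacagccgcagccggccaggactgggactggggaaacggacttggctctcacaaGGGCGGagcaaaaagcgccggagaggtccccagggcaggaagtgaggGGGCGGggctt
Mief1, chr15:80233930-80234017, plus strand: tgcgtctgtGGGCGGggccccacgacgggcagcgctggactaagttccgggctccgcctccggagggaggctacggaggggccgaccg

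The SP1 motif GGGCGG lay, on one strand or the other, in 11 of the 14 windows, at 1 start or more of each of the 9 matched genes, beside 28.6% of the 32851 windows of that length in the table of promoters. The cAMP response element TGACGTCA was in none of the 9 genes and in 1.36% of all windows. Its shorter core TGACG was in 6 of the 14 windows, those of Mfn1, Mfn2 and Mff, and in 13.3% of all windows, and the Mfn2 stretch above holds 2 copies. Opa1 was the single gene with the motif CGCATGCGC of the nuclear respiratory factor NRF1, on both strands at bases 59 to 50 before its start, a motif in 1 of the 14 windows and in 1.19% of all windows. CCGGAAG, an ETS family motif, lay in 3 of the 14 windows, 1 each of Mfn1, Mief1 and Fis1 (5.52% of all windows), in Mief1 across the start of the gene in the count table and thus outside the stretch printed. CCAAT was in 3 of the 14 windows, 1 each of Mfn1, Fis1 and Mief2 (24.5%), and the E-box CACGTG in 1, that of Mief2 (4.3%). Windows of 1 gene can overlap and share a match. The 14 windows held 52 to 77.3% G and C, and the shares over all windows were not matched for this. Neither the sterol element TCACCCCAC (0.295%) nor the ERR motif TCAAGGTCA (0.18%) was in any of the 9 genes. A match describes the letters of the window and is not a measured binding site, and motifs were shared by genes that rose, fell and were not called.

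The mitofusins moved in opposite directions. Mfn1, on chromosome 3 (chr3:32529465-32579239, plus strand, GRCm38), had 52.0, 57.0, 57.4 and 56.2 CPM in KO libraries 1 to 4, against 72.4, 77.9, 72.4 and 68.1 CPM in WT libraries 1 to 4. Every KO library lay below every WT library. Its mean was 55.6 ± 2.47 CPM in KO cells and 72.7 ± 4.02 CPM in WT cells (n = 4 each), a log2 fold change of -0.39 (SE 0.0574, 95% interval -0.51 to -0.26, edgeR adjusted p = 5.2e-05), so Mfn1 fell by 23.4%. MFN1 tethers the outer membranes of neighbouring mitochondria.

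Mfn2, whose product also sits at contacts with the endoplasmic reticulum, is on chromosome 4 (chr4:147873599-147904704, minus strand). It had 200.5, 224, 207 and 199 CPM in KO libraries 1 to 4, against 182, 185, 186 and 165 CPM in WT libraries 1 to 4. The lowest KO library was above the highest WT library. Its mean was 208 ± 11.7 CPM in KO cells and 179 ± 10.1 CPM in WT cells, a log2 fold change of 0.21 (SE 0.0546, 95% interval 0.09 to 0.33, edgeR adjusted p = 0.00545).

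Read against each other within a library, which needs no scaling between libraries, Mfn1 had 0.254 to 0.283 counts for each count of Mfn2 in KO libraries and 0.388 to 0.421 in WT libraries. The log2 ratio differed by -0.60 (KO minus WT), and the groups did not overlap (exact permutation test, 2-sided, p = 0.0286, 0.0571 after adjustment over the 4 ratios compared). With 4 libraries against 4, no smaller p can be reached, and none of the 4 ratios passed the adjusted threshold of 0.05. Summed per gene length, both mitofusins together gave 47.1 to 52.5 FPKM in KO libraries and 42.8 to 48.4 FPKM in WT libraries, and these ranges overlap.

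Mfn1 lies on a chromosome on which many genes fell. Of the 631 tested genes of chromosome 3, which also carries Mttp, 299 fell and 38 rose, with a median log2 fold change of -0.22. Within 1 Mb of Mfn1, 4 of 7 tested genes fell and none of the 7 rose, and their median was -0.23. After subtraction of the chromosome medians, the difference of Mfn1 was -0.16 (edgeR adjusted p = 0.0350) and that of Mfn2 was 0.21 (adjusted p = 0.00539). Both kept their direction and their call, and for Mfn1 the chromosome median of -0.22 made up most of its -0.39. The count ratio of Mfn1 to Mfn2 was not centred, so its log2 difference of -0.60 includes the shift of chromosome 3. Effects of the knockout and of a change that chromosome 3 shares cannot be told apart by this design.

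Opa1, the gene of the inner membrane fusion GTPase, is on chromosome 16 (chr16:29579334-29654884, plus strand) and varied little between replicates. It had 159, 157, 153 and 159.9 CPM in KO libraries 1 to 4, against 139.9, 141, 141 and 144 CPM in WT libraries 1 to 4. The groups did not overlap, and the gap was small. Its mean was 157 ± 2.99 CPM in KO cells and 142 ± 2.03 CPM in WT cells, a log2 fold change of 0.15 (SE 0.0437, 95% interval 0.06 to 0.24, edgeR adjusted p = 0.0104). Chromosome 16 had a median of 0.0027, and centring left 0.15 for Opa1.

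Oma1, the gene of the protease that cuts OPA1 when the membrane potential drops, had the largest change of the 10 genes and the lowest level. It lies on chromosome 4 (chr4:103313812-103371868, plus strand) and had 8.03, 8.83, 8.00 and 8.59 CPM in KO libraries 1 to 4, against 6.06, 6.63, 5.28 and 5.43 CPM in WT libraries 1 to 4. Every KO library lay above every WT library, although the values rest on only 81 to 147 counts per library. Its mean was 8.36 ± 0.412 CPM in KO cells and 5.85 ± 0.620 CPM in WT cells, a log2 fold change of 0.51 (SE 0.118, 95% interval 0.26 to 0.76, edgeR adjusted p = 0.00222), which is a level 43.0% higher. Within 1 Mb of Oma1, 1 of 4 tested genes fell and 0 rose, with a median log2 fold change of -0.02.

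Opa1 and Oma1 both rose, with the larger log2 fold change in Oma1. Oma1 had 0.0505 to 0.0561 counts for each count of Opa1 in KO libraries and 0.0373 to 0.0471 in WT libraries, without overlap. This log2 ratio was higher by 0.37 in KO cells (exact permutation test, 2-sided, p = 0.0286, 0.0571 after adjustment over the 4 ratios).

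Other genes of OPA1 processing, mitochondrial proteases, scaffolds and related genes, not all of the inner membrane, formed a list of 12 tested genes. Of these, 7 rose and 0 fell, with a median log2 fold change of 0.17, while 21.7% of all tested genes rose and 21.1% fell. The most abundant was Lonp1, a protease of the matrix, at 1757 ± 58.7 CPM in KO cells and 1343 ± 38.9 CPM in WT cells (0.39, edgeR adjusted p = 2.07e-06). Spg7, a subunit of the m-AAA protease, rose by 0.46 on the log2 scale, its partners Afg3l1 and Afg3l2 by 0.18 each, and Phb1, a prohibitin, by 0.15. Yme1l1, the constitutive OPA1 protease, had a log2 fold change of 0.11 and was not called (edgeR adjusted p = 0.214). In the list of cristae organisers, 4 of 12 rose and 1 fell (median 0.06), with Immt, which encodes MIC60, at 0.26, Chchd3, its most abundant gene per length, at 0.23, and Micos10 at -0.17. The largest change among the cristae organisers was in Dnajc11 (0.49, edgeR adjusted p = 1.99e-06). Spg7, Afg3l1, Afg3l2, Phb1, Yme1l1, Immt, Micos10 and Dnajc11 were picked as examples after their values were seen.

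**Figure D2:**
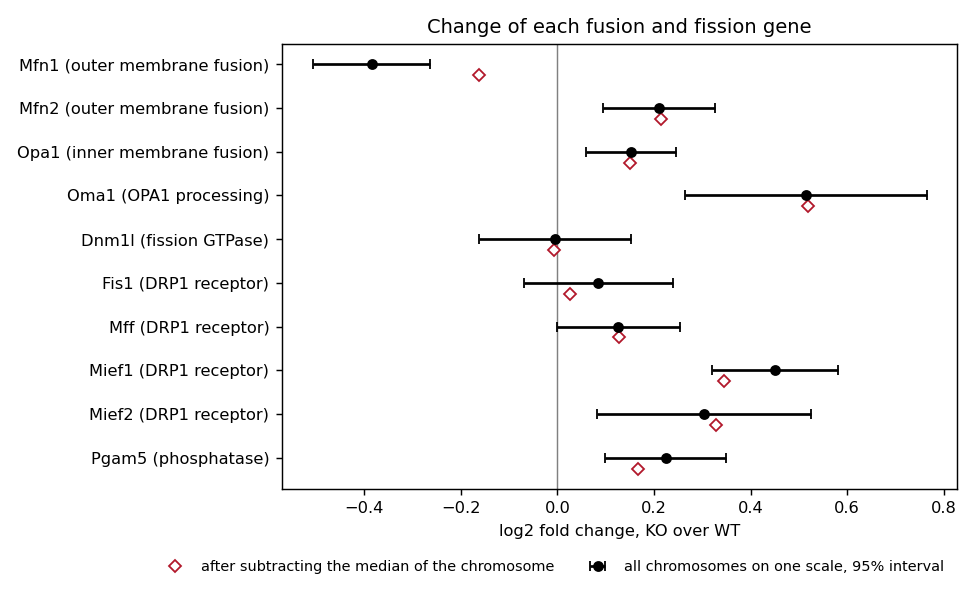
Log2 fold change of each gene (KO over WT) with its 95% interval from edgeR (black points and bars) and after subtraction of the median of its chromosome (open red diamonds). The interval lies below 0 for Mfn1 and above 0 for Mfn2, Opa1, Oma1, Mief1, Mief2 and Pgam5, and it crosses 0 for Dnm1l, Fis1 and Mff. The diamond of Mfn1 stands at -0.16 and that of Mief1 at 0.34.

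Dnm1l, the gene of the fission GTPase DRP1, did not pass the test. On chromosome 16 (chr16:16312230-16358959, minus strand), it had 98.1, 82.4, 89.1 and 79.3 CPM in KO libraries 1 to 4, against 78.8, 92.4, 83.1 and 96.2 CPM in WT libraries 1 to 4. High and low libraries occurred in both groups, and the ranges almost coincided. Its mean was 87.2 ± 8.32 CPM in KO cells and 87.6 ± 8.05 CPM in WT cells, a log2 fold change of -0.0050 (SE 0.0740, 95% interval -0.16 to 0.15, edgeR adjusted p = 0.966). That interval leaves room for a level from 0.894 to 1.11 times that of WT cells.

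The genes of the receptors that bring DRP1 to the outer membrane differed in their calls. Mief1 and Mief2, the genes of the MiD receptors, rose, and Fis1 and Mff were not called. All 4 log2 fold changes were positive (Mief1 0.45, Mief2 0.30, Mff 0.13, Fis1 0.08). The intervals of Mief2 (0.08 to 0.52), Mff (-0.0013 to 0.25) and Fis1 (-0.07 to 0.24) overlapped. That of Mief1 (0.32 to 0.58) lay above those of Mff and Fis1. Whether the MiD genes changed more than Fis1 and Mff was not tested. Summed per gene length, the 4 receptors gave 50.6 to 58.1 FPKM in KO libraries and 44.7 to 50.7 FPKM in WT libraries, ranges that overlap at one end.

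Mief1, on chromosome 15 (chr15:80234018-80253371, plus strand), had the smallest p of the 10 genes. It had 77.2, 76.8, 78.7 and 76.2 CPM in KO libraries 1 to 4, against 62.6, 53.8, 58.3 and 51.4 CPM in WT libraries 1 to 4. KO libraries lay within a narrow band, all above the WT libraries, which spread more widely. Its mean was 77.2 ± 1.07 CPM in KO cells and 56.5 ± 4.98 CPM in WT cells, a log2 fold change of 0.45 (SE 0.0616, 95% interval 0.32 to 0.58, edgeR adjusted p = 2.19e-05), a level 36.7% higher. Chromosome 15 was itself raised, with 193 of 546 tested genes called as higher and a median of 0.11, and 16 of the 33 tested genes within 1 Mb of Mief1 rose. Centring on the chromosome left 0.34 (edgeR adjusted p = 0.000344).

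Across the 8 libraries the genes with the pattern most like that of Mief1, by Pearson's r of log2 CPM, were Alg2 (r = 0.996), an enzyme of N-glycan assembly, Brpf3 (0.995), a scaffold of histone acetyltransferases, and Afap1l2 (0.993), an actin-associated adaptor. The 8 points share the split into KO and WT, so such values describe the libraries and carry no test. Alg2 averaged 79.6 ± 1.60 CPM in KO cells and 56.1 ± 5.85 CPM in WT cells.

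Mief2, on chromosome 11 (chr11:60728398-60732951, plus strand), was expressed at a lower level than Mief1. It had 14.9, 10.9, 13.7 and 13.7 CPM in KO libraries 1 to 4, against 10.6, 10.1, 11.6 and 10.9 CPM in WT libraries 1 to 4. KO library 2 lay inside the WT range, and the other 3 KO libraries lay above it. Within 1 Mb of Mief2, 12 of 35 tested genes rose and 2 fell, with a median log2 fold change of 0.13. Its mean was 13.3 ± 1.67 CPM in KO cells and 10.8 ± 0.614 CPM in WT cells, a log2 fold change of 0.30 (SE 0.104, 95% interval 0.08 to 0.52, edgeR adjusted p = 0.0281). This call was lost without KO replicate 1 (0.25, edgeR adjusted p = 0.0891), KO replicate 3 (0.29, 0.0663), KO replicate 4 (0.30, 0.0567), WT replicate 1 (0.29, 0.0509) or WT replicate 2 (0.28, 0.0755).

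The ratio of Mief1 to Mief2 counts was 5.20 to 7.03 in KO libraries and 4.73 to 5.91 in WT libraries, with overlap. Its log2 difference was 0.16 (exact permutation test, 2-sided, p = 0.229, 0.305 after adjustment over the 4 ratios). A difference between Mief1 and Mief2 in their change from WT to KO cells was not detectable with these libraries.

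Mff, on chromosome 1 (chr1:82724890-82752394, plus strand), had 67.4, 65.9, 65.6 and 63.8 CPM in KO libraries 1 to 4, against 55.2, 59.0, 60.0 and 66.5 CPM in WT libraries 1 to 4. WT library 4 lay within the KO range, and the other WT libraries lay below it. Its mean was 65.7 ± 1.47 CPM in KO cells and 60.2 ± 4.70 CPM in WT cells, a log2 fold change of 0.13 (SE 0.0599, 95% interval -0.0013 to 0.25, edgeR adjusted p = 0.105). Without WT replicate 4 the change was 0.18 and would have been called (edgeR adjusted p = 0.0151).

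Fis1, on chromosome 5 (chr5:136953275-136966234, plus strand), had 62.1, 54.4, 52.2 and 50.8 CPM in KO libraries 1 to 4, against 47.1, 50.6, 56.7 and 52.9 CPM in WT libraries 1 to 4. The libraries of both groups were interleaved. Within 1 Mb of Fis1, 15 of 43 tested genes rose and 4 fell, with a median log2 fold change of 0.21. Its mean was 54.9 ± 5.05 CPM in KO cells and 51.8 ± 4.03 CPM in WT cells, a log2 fold change of 0.08 (SE 0.0729, 95% interval -0.07 to 0.24, edgeR adjusted p = 0.381). Mff had 1.08 to 1.26 counts for each count of Fis1 in KO libraries and 1.06 to 1.26 in WT libraries, a log2 difference of 0.05 (exact permutation test, 2-sided, p = 0.571, 0.571 after adjustment over the 4 ratios).

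**Figure D3:**
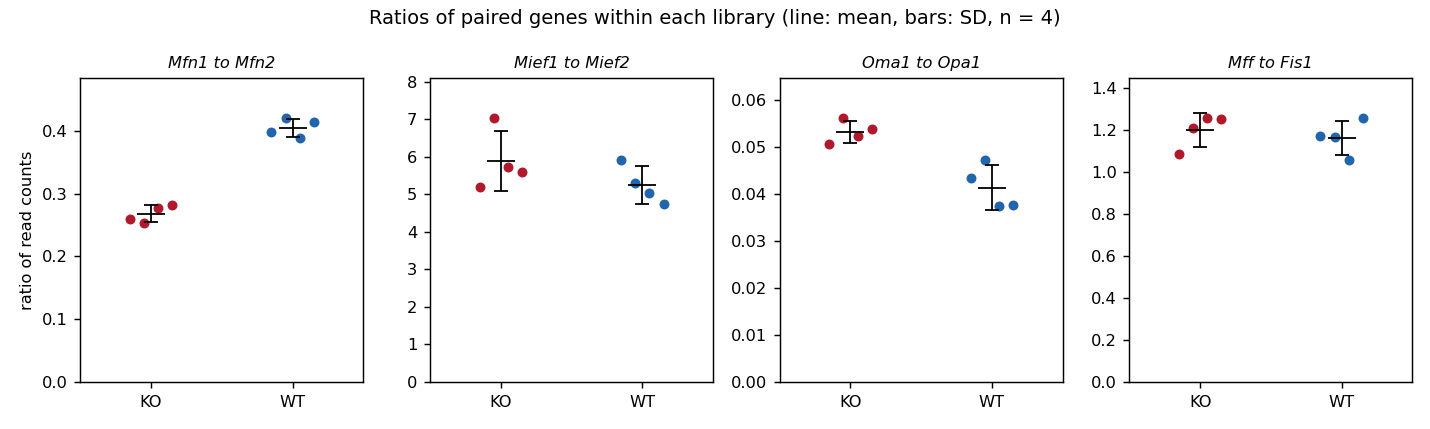
Ratio of the read counts of 2 genes within each library for the 4 pairs compared, with KO libraries (left, red) and WT libraries (right, blue) as points and the mean ± SD as lines with bars. The groups are apart for Mfn1 to Mfn2 (0.254 to 0.283 in KO, 0.388 to 0.421 in WT) and for Oma1 to Opa1, and they overlap for Mief1 to Mief2 and for Mff to Fis1.

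Pgam5 encodes a phosphatase of mitochondria that can remove phosphate from DRP1. On chromosome 5 (chr5:110259130-110269913, minus strand), it had 30.2, 29.8, 31.4 and 30.5 CPM in KO libraries 1 to 4, against 25.7, 26.4, 25.9 and 26.2 CPM in WT libraries 1 to 4. Replicates lay close together and the groups did not overlap. Its mean was 30.4 ± 0.668 CPM in KO cells and 26.1 ± 0.330 CPM in WT cells, a log2 fold change of 0.22 (SE 0.0587, 95% interval 0.10 to 0.35, edgeR adjusted p = 0.00585). Centring on chromosome 5, whose median was 0.06, left 0.17 (edgeR adjusted p = 0.0346). An antisense gene that overlaps Pgam5, Gm15788, was assigned 76 counts in all libraries together, 2.07% of the counts of Pgam5. Whether reads of the opposite strand were counted for Pgam5 was not tested.

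Regulators of fission beyond the receptors were mixed. Of 23 tested genes, 6 rose and 4 fell, with a median log2 fold change of 0.04, while 21.7% of all tested genes rose and 21.1% fell. Mtfp1, the gene of an inner membrane protein that promotes fission, averaged 18.5 ± 1.33 CPM in KO cells and 11.9 ± 2.33 CPM in WT cells (0.64, edgeR adjusted p = 0.000439). Ppp3cc, the gene of a catalytic subunit of calcineurin, a phosphatase of DRP1, rose by 0.59 on the log2 scale to 11.6 ± 1.99 CPM in KO cells, against 7.71 ± 1.23 CPM in WT cells. Inf2, an actin-assembling formin that helps DRP1 at contacts with the endoplasmic reticulum, fell by 0.54 on the log2 scale to 48.3 ± 5.65 CPM in KO cells, against 70.2 ± 9.67 CPM in WT cells. Prkaca, a catalytic subunit of protein kinase A and the most abundant of the list, was not called (355 ± 10.9 CPM in KO cells, 335 ± 5.31 CPM in WT cells). Among 11 tested fusion accessory genes 3 rose and 0 fell (median 0.15). Of these 3, Miga2, picked after its values were seen, had the largest change (0.40, edgeR adjusted p = 1.03e-05). The most abundant per length, Trak2, a motor adaptor, averaged 176 ± 8.09 CPM in KO cells and 175 ± 7.58 CPM in WT cells.

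Per kilobase of gene length, which allows levels of different genes to be compared, Mfn2 was the most abundant of the 10 genes in both groups and Oma1 the least. The order in KO cells was Mfn2 (40.0 FPKM), Fis1 (32.0 FPKM), Opa1 (19.98 FPKM), Dnm1l (16.8 FPKM), Pgam5 (12.8 FPKM), Mief1 (9.53 FPKM), Mfn1 (9.10 FPKM), Mff (6.73 FPKM), Mief2 (4.89 FPKM) and Oma1 (3.90 FPKM). Neighbours in this order did not overlap between libraries except Mief2 and Oma1, and Mief1 and Mfn1 were barely apart, with 9.40 FPKM in the lowest library for Mief1 and 9.39 FPKM in the highest for Mfn1. The order in WT cells was Mfn2 (34.6 FPKM), Fis1 (30.2 FPKM), Opa1 (17.98 FPKM), Dnm1l (16.8 FPKM), Mfn1 (11.9 FPKM), Pgam5 (10.99 FPKM), Mief1 (6.97 FPKM), Mff (6.17 FPKM), Mief2 (3.97 FPKM) and Oma1 (2.73 FPKM). There, Mfn2 and Fis1, Opa1 and Dnm1l, Mfn1 and Pgam5, and Mief1 and Mff overlapped. Mfn1 thus stood below Pgam5 and Mief1 in KO cells and above Mief1 in WT cells. FPKM rests on 1 gene length per gene, and isoforms were not told apart.

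**Figure D4:**
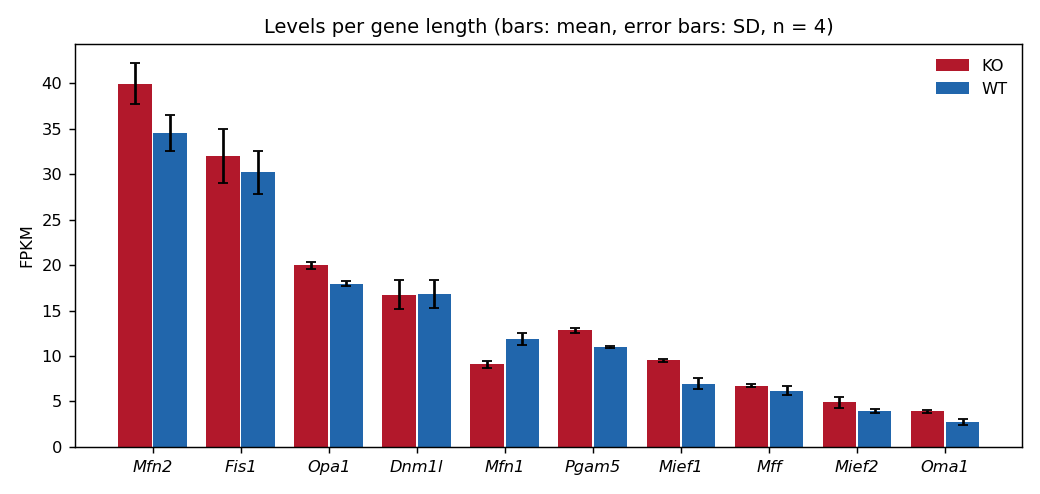
Level of the 10 genes per gene length (FPKM, axis from 0), ordered by their mean in WT cells, with KO cells (left bar, red) and WT cells (right bar, blue) for each gene. Bars are means and error bars are SD over 4 libraries. Mfn2 is highest (40.0 FPKM in KO, 34.6 FPKM in WT) and Oma1 lowest (3.90 FPKM in KO, 2.73 FPKM in WT), and Mfn1 is the single gene whose KO bar is clearly below its WT bar.

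In a list of genes of mitochondrial content, 9 of 18 tested genes rose and 1 fell, with a median log2 fold change of 0.13. Of all tested genes, 21.7% rose and 21.1% fell. After centring by chromosome, 6 genes of the list rose and 2 fell. Hspd1, the matrix chaperonin and the most abundant, averaged 1187 ± 33.7 CPM in KO cells and 1049 ± 47.8 CPM in WT cells (0.18, edgeR adjusted p = 0.00436). Twnk, the helicase of mitochondrial DNA, and Esrra, the nuclear receptor ERRα, rose by 0.66 and 0.52 on the log2 scale, but both lie on chromosome 19, whose 446 tested genes had a median of 0.51. After centring on it Twnk stood at 0.14 (edgeR adjusted p = 0.0674) and Esrra at 0.01 (adjusted p = 0.909). Nrf1, a transcription factor of nuclear genes for mitochondria, was picked as an example after its values were seen and fell by 0.29 on the log2 scale. The median of the 10 fusion and fission genes, 0.18, was of the size of the median of this list, and whether the 10 genes rose with mitochondrial content was not tested.

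In the list of mitophagy genes and PGAM5 partners 1 of 15 tested genes rose and 4 fell (median -0.01), with Calcoco2, the autophagy receptor NDP52, at 20.5 ± 0.620 CPM in KO cells and 33.0 ± 3.71 CPM in WT cells (-0.68, edgeR adjusted p = 4.25e-06). Fkbp8, an outer membrane mitophagy receptor and the most abundant of the list per length, was not called (-0.04). In the list of cardiolipin synthesis, the lipid of the inner membrane that OPA1 binds, 5 of 13 rose and 3 fell (median 0.09). Its largest change was in Prelid2, at 0.606 ± 0.262 CPM in KO cells and 1.60 ± 0.278 CPM in WT cells (-1.40, edgeR adjusted p = 0.00182). Prelid2 was expressed at a low level, with 0.30 to 0.94 CPM in KO libraries and 1.22 to 1.89 CPM in WT libraries. With a filter of 10 counts in every library, 2 genes of this list fell in place of 3. The most abundant gene of the list per length, Prelid1, which encodes a lipid carrier of the intermembrane space, fell by 0.18 on the log2 scale. At contact sites with the endoplasmic reticulum 1 of 11 rose and 3 fell (median -0.06), and the most abundant, Hspa9, was not called (-0.11, edgeR adjusted p = 0.0599). Beside these 3 lists, 21.7% of all tested genes rose and 21.1% fell.

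**Figure D5:**
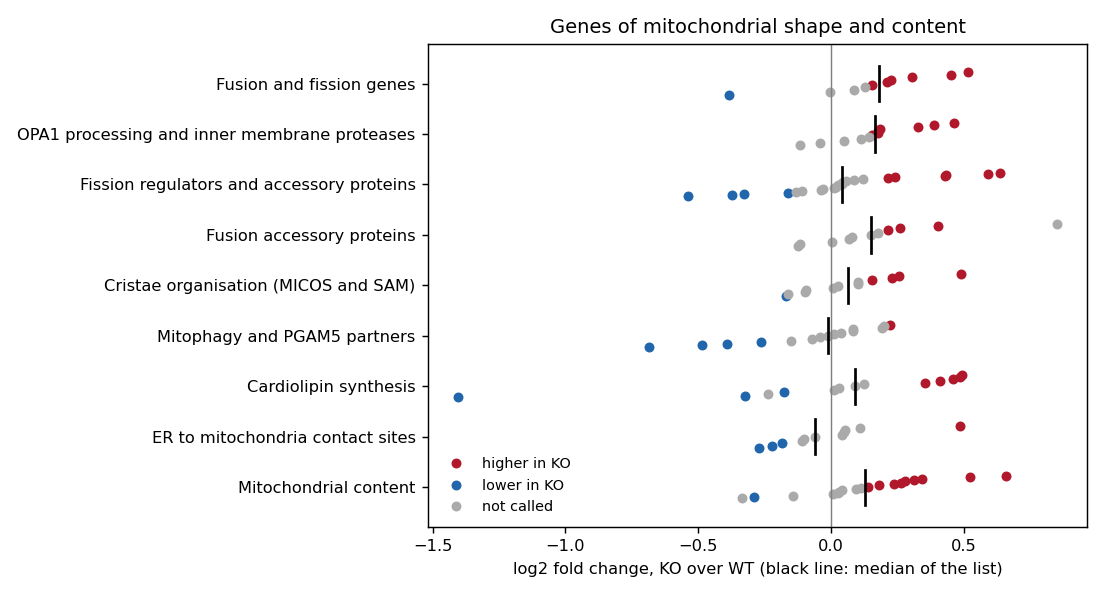
Log2 fold change (KO over WT) of the 10 fusion and fission genes (top row) and of the tested genes of 8 lists of related function, each point 1 gene, red where higher in KO cells, blue where lower and grey where not called. Black lines are medians, which run from -0.06 for contact sites with the endoplasmic reticulum to 0.18 for the fusion and fission genes.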

How the data were processed

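The libraries were made from poly-A RNA, and the table that the authors deposited holds unnormalized read counts of all 8 libraries. The submitters' processing notes name HISAT2 2.0.5 and featureCounts 1.5.0-p3 and list the builds GRCh37, hg19 and mm39 with no role. Positions in the table match RefSeq GRCm38.p6 for 37569 of 37620 shared symbols. The sources used here do not give the strand setting or the handling of multimapping reads. Groups came from sample titles, since the genotype field reads wild type throughout.

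Counts were fitted with edgeR 4.0.16 in R 4.3.3 (filterByExpr, minimum count 10 and minimum total 15, TMM, quasi-likelihood F test, genotype only), with Benjamini-Hochberg adjustment over the 13185 tested genes. Depth of 14927989 to 18394797 counts per library and 4 libraries per group set the precision, and the biological coefficient of variation was 7.11%. Ratios were compared by exact permutation tests. No replicate pair agreed within sampling noise (chi-square per degree of freedom 3.39 to 14.9). The script was tested on simulated data.

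The 10 genes, the 8 lists, the motifs and the tests were chosen with earlier results of these data known. Named genes were the 10 members, Mttp, called genes of each list with an absolute log2 fold change above 0.5 (at most 4 per list), the most abundant gene of each list per length, and the 3 genes most like the called member with the smallest p. Genes were found by symbol and then followed by Ensembl ID. Genes of the 8 lists whose symbol was not found were looked up by Ensembl ID, and 27 symbols in the table had become dates. The alternatives were DESeq2 1.42.0, limma voom (limma 3.58.1), other scalings and filters, centring by chromosome, TPM, a replicate block and leaving out each library. Figures were drawn with matplotlib 3.10.9.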

Additional observations from a re-analysis of the deposited data

How the results depend on the processing

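Under 18 alternatives (10 other settings and 8 fits without 1 library), Mfn1, Mfn2, Opa1, Oma1, Mief1 and Pgam5 kept their calls and Fis1 stayed uncalled. Dnm1l, never called, turned to 0.0061 with no filter and to 0.0019 with protein-coding genes only, and ran from -0.062 to 0.046 over the fits without 1 library. Over those fits Mff ran from 0.085 to 0.18 and Mief2 from 0.25 to 0.39. With a limit of 0.5 on the absolute log2 fold change, 1 of the 10 genes rose and 0 fell, and of all genes 969 rose and 1113 fell, against 2856 and 2776 without it. Centring by chromosome gave 6 risers in mitochondrial content in place of 9, and 8 among fission regulators in place of 6. Among genes of OPA1 processing and proteases, 8 rose after centring and 5 with a replicate block, in place of 7. Centring also gave 5 risers among fusion accessory genes, 0 among mitophagy genes and 2 genes that fell in mitochondrial content. A filter of 10 counts in every library also gave 2 there, and 2 in cristae organisers, as did DESeq2 size factors and total counts. Without 1 library, mitophagy genes had 0 to 2 risers, contact sites 1 to 2 risers and 3 to 5 that fell, and mitochondrial content 1 to 2 that fell. The cause was not tested. No alternative moved the median of all genes by 0.1. Levels in TPM were 2.65 to 2.67 times those in FPKM and gave the same order.

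Replicate numbers did not pair the samples (correlations of same-numbered libraries -0.152 to 0.0407, and 2 of 4 KO libraries correlated best with their own number). The highest correlations were between KO library 4 and WT library 1 (0.183) and between KO library 1 and WT library 4 (0.171). Only a block of equal replicate numbers was fitted. With a replicate block, 4821 genes were called (2450 higher, 2371 lower) in place of 5632, and no call among the 10 genes changed. Depth limits Oma1 and Mief2 most, with 81 to 147 and 153 to 257 counts per library.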
